A study of Mus musculus with 6 samples.

Results

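Zscan4c, Tcstv1 and Usp17la are mouse genes of the two-cell-like group, which are switched on in the cleavage-stage embryo and again, for short periods, in some cells of embryonic stem cell cultures. They were chosen by their measured log2 difference between untreated epiblast stem cells and untreated embryonic stem cells on these same arrays, in which all 3 were lower in the epiblast stem cells. That comparison is therefore given here as a description. Probes were assigned to them by matching transcript accessions to the RefSeq gene table, which gave 3 of 17016 named genes and 6 of 24375 named probes. Zscan4c has 2 probes, Tcstv1 has 3 and Usp17la has 1. All 3 genes passed the filter on low values through their brightest probe, which was well above background on all 6 arrays.

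The study hybridised total RNA from 3 kinds of mouse pluripotent culture of strain 129 to one-colour Agilent arrays, each with and without SB431542, which blocks the ALK receptor kinases that pass on Nodal, Activin and TGF-beta signals. The 6 groups were E3.5 EpiSC + SB431542, E5.5 EpiSC + SB431542 and mES + SB431542, which received 20 µM of the inhibitor daily for 4 days, and E3.5 EpiSC, E5.5 EpiSC and mES, which were untreated. EpiSC stands for epiblast stem cells, here a line from E3.5 embryos and a line from E5.5 embryos, and mES for mouse embryonic stem cells, labelled as E3.5 in stage. All 6 cultures were grown in Knockout DMEM with serum replacement, each group holds 1 array, and each kind of culture is 1 line.

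Zscan4 proteins carry a SCAN domain and zinc fingers, and in mouse embryonic stem cells they act in telomere lengthening and genome stability. Tcstv1 encodes a small protein named for its expression at the two-cell stage, and Usp17la encodes a deubiquitinating enzyme of a family that lies in gene clusters. The transcription factor Dux, helped by Dppa2 and Dppa4, activates many genes of this group, and chromatin repressors such as Trim28 and the Chaf1 subunits hold them silent in most embryonic stem cells. At any one time only a minority of cells in such a culture express Zscan4, and they do so in bursts. In RNA from whole cultures, fewer cells of this kind and less RNA per cell cannot be told apart.

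These genes belong to families of near-identical copies. The RefSeq table lists 9 Zscan4 entries on chromosome 7, of which 4 are protein coding and 1, Zscan4c, has a probe named here. It lists 6 Usp17l entries on chromosome 7, of which 5 are protein coding and 2, Usp17la and Usp17lc, have a probe, and 2 Tcstv genes on chromosome 13, both with probes. Which copies a probe detects was not tested, so a value named for 1 gene may include its relatives. The similarity is visible in the promoters, of which 2 pairs are shown because each sets a measured gene beside a relative. Each runs from 250 bases before to 50 bases after the transcription start, from RefSeq on GRCm38.p6, with the motif TATAAA or, in Usp17la, TTTAAA in capitals.
Zscan4c: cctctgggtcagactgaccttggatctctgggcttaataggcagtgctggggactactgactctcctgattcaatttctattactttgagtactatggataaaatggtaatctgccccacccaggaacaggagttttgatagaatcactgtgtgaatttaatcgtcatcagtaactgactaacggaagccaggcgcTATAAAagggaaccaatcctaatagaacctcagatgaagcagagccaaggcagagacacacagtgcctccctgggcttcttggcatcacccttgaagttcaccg
Zscan4f: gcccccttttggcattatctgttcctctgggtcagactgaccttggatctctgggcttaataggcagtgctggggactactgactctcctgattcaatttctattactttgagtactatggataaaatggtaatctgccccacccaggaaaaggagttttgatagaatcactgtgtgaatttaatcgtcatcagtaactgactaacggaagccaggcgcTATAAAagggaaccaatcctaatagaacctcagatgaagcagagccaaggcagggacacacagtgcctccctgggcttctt
Usp17la: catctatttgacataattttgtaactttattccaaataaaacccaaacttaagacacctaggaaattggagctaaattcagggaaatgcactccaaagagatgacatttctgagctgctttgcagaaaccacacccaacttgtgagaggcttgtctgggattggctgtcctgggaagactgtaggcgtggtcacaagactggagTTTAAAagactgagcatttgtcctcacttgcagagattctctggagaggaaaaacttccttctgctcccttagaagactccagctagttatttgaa
Usp17lc: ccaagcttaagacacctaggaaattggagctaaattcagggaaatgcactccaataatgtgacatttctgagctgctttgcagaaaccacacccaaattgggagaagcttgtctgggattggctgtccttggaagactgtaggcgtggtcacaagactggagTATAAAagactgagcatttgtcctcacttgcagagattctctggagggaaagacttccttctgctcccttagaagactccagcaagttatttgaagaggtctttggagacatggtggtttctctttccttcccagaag

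All 4 lie on the plus strand, Zscan4c at chr7:11005495-11005794, Zscan4f at chr7:11397665-11397964, Usp17la at chr7:104856766-104857065 and Usp17lc at chr7:103416446-103416745. Zscan4c and Zscan4f were identical at 275 of 277 aligned bases (99.3%), and Usp17la and Usp17lc at 245 of 257 (95.3%). The motif TATAAA begins 54 bases before the annotated start in Zscan4c, 31 in Zscan4f and 88 in Usp17lc, and TTTAAA begins 46 bases before the start in Usp17la. Searched on both strands and sharing no base in these matches, TATAAA occurs in 13.6% and TTTAAA in 13.2% of 32851 promoters of the same length, and TTTAAA was added after the Usp17la sequence was seen. The Smad half-site CAGAC occurs in all 4 and in 49.6% of all promoters, and the octamer ATGCAAAT in none of the 4 and in 1.74% of all. Between 1 and 4 CpG sites lie in each of the 4, against a median of 7 over all promoters. Tcstv1 has no entry in the promoter table.

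Between 82.6% and 85.7% of spots per array were well above background, 0 were saturated, and tests covered the 16153 named genes with signal above background somewhere in the series. Levels are log2 of the processed signal relative to the array's 75th percentile. The arrays were checked against markers of the labelled cells. Zfp42, a naive marker, stood at 6.17 on the mES + SB431542 array and 5.77 on the mES array, and at -2.01 or lower on the 4 EpiSC arrays. Fgf5, which marks the primed epiblast, stood at 3.07 and 4.32 on the untreated E3.5 and E5.5 EpiSC arrays, against -2.62 on the mES array. Of 6 primed markers 3 were called higher in untreated EpiSCs than in untreated mES cells and 3 did not pass, where 0.39% of all genes were called higher. Dnmt3b, for example, stood at 4.41, 4.58 and 4.55 on the untreated E3.5 EpiSC, E5.5 EpiSC and mES arrays. On the treated E3.5 and E5.5 EpiSC arrays Fgf5 stood at -6.29 and -6.04 and Pou5f1, the core pluripotency factor, at -5.39 and -4.38, so "EpiSC + SB431542" names the line the culture came from and not its state. On the mES + SB431542 array Pou5f1 stood at 5.35, against 5.59 on the mES array. All 12 fibroblast markers were above background on all 6 arrays. Their summed signal was 69.0 (E3.5 EpiSC + SB431542), 126 (E5.5 EpiSC + SB431542) and 68.1 (mES + SB431542) times the 75th percentile on the treated arrays, against 78.7 (E3.5 EpiSC), 132 (E5.5 EpiSC) and 46.0 (mES) on the untreated arrays, and their part in the results was not tested. Of 9 blood cell markers 9 were above background on the mES array and 8 on each of the other 5 arrays, and the exception there was Ptprc, which defines blood cells. The part of blood cells in the results was not tested.

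Zscan4c was bright on the mES arrays and dim on all 4 EpiSC arrays. Its brightest probe, A_52_P302671, gave signals of 99.4, 62.9 and 1237 on the treated E3.5 EpiSC, E5.5 EpiSC and mES arrays, against 139, 84.3 and 6362 on the untreated arrays in the same order. On the log2 scale these are levels of -4.18, -4.54 and -0.05 on the treated arrays, against -3.10, -3.86 and 2.20 on the untreated ones. The untreated mES array was the highest, the treated mES array came next, and the 4 EpiSC arrays lay below both. The genes were chosen as lower in untreated EpiSCs, and no share over all genes is given for such an order. It is therefore a description, here and for the other genes below. Probe A_52_P363843 gave the same order of mES over EpiSC, with signals of 56.1, 74.8 and 624 on the treated arrays, against 65.9, 53.0 and 4482 on the untreated arrays, again for E3.5 EpiSC, E5.5 EpiSC and mES. The 2 probes differed in the order of the E5.5 EpiSC arrays, where the first was lower with SB431542 and the second was higher.

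Tcstv1 had the same shape at a lower peak. Its brightest probe, A_52_P66425, gave 156, 122 and 640 on the treated E3.5 EpiSC, E5.5 EpiSC and mES arrays, against 197, 165 and 3465 on the untreated arrays, in log2 levels -3.53, -3.58 and -0.999 against -2.59, -2.90 and 1.32. Probe A_51_P481777 gave 69.4, 104.7 and 637 on the treated arrays, against 74.8, 74.0 and 3726 on the untreated ones. Probe A_51_P481768 was dimmer, at 9.31, 20.9 and 184 on the treated arrays, against 42.5, 28.4 and 1136 on the untreated ones, and on both treated EpiSC arrays it was not well above background. On each of the 3 probes both mES arrays exceeded all 4 EpiSC arrays.

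Usp17la, measured by the single probe A_51_P302273, gave 113, 73.2 and 1127 on the treated E3.5 EpiSC, E5.5 EpiSC and mES arrays, against 197, 156 and 3852 on the untreated arrays. The log2 levels were -3.99, -4.32 and -0.18 with SB431542, against -2.60, -2.98 and 1.48 without it. It was the only one of the 3 genes whose treated EpiSC arrays both lay more than 1 log2 unit below their untreated partners. On all 3 brightest probes the order of the 6 arrays was the same from the top: mES, mES + SB431542, E3.5 EpiSC, E5.5 EpiSC, and then the 2 treated EpiSC arrays. The scanner software's error on these probes was 10.0% to 12.0% of the signal, and the EpiSC signals were 4.08 to 13.7 times the lowest signal called above background on their array. With 1 array per group, neighbours in this order cannot be tested against a replicate spread.

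**Figure D1:**
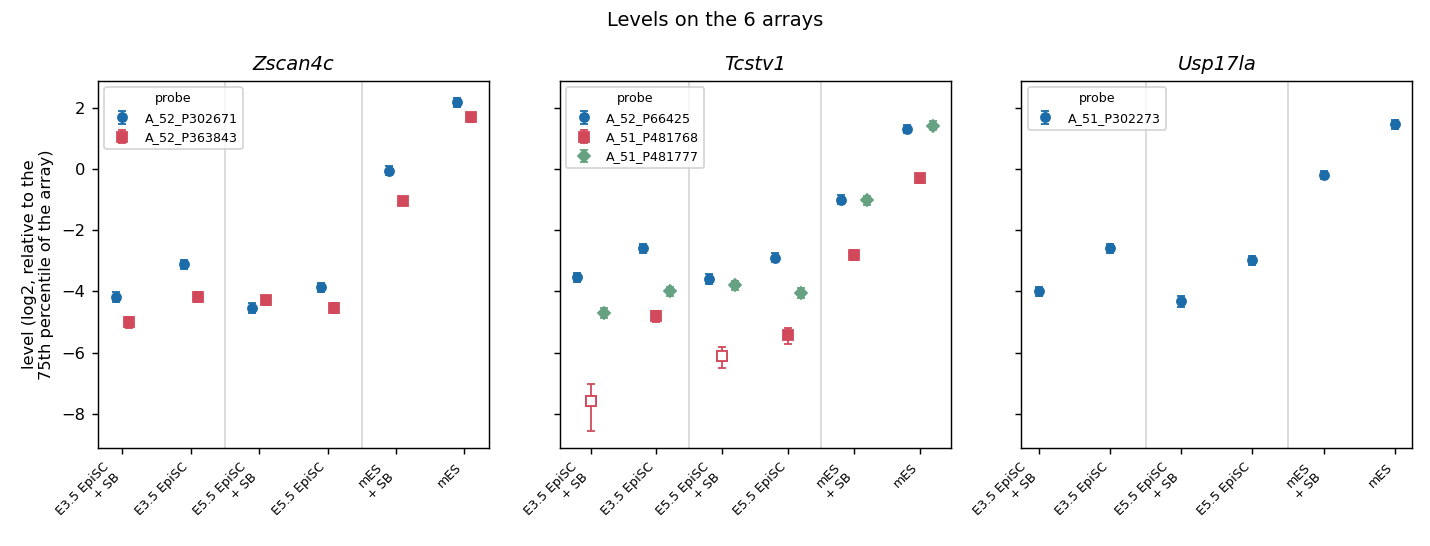
Level of each probe of Zscan4c, Tcstv1 and Usp17la on the 6 arrays, as log2 relative to the array's 75th percentile (SB = SB431542). Bars are the scanner software's error and open symbols are not well above background. Both mES arrays stand above the 4 EpiSC arrays on every probe, and the mES + SB431542 array stands below the mES array. The genes were chosen on the untreated arrays.

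The comparison that chose the genes ran between untreated EpiSC and untreated mES arrays. On the brightest probes Zscan4c was 51.4-fold lower in EpiSCs (log2 difference -5.68), Usp17la 19.2-fold lower (-4.26) and Tcstv1 16.8-fold lower (-4.07). On the other probes Zscan4c was 66.3-fold lower, and Tcstv1 43.7-fold (A_51_P481777) and 28.6-fold lower (A_51_P481768). The order of the genes by fold thus depends on the probe. In the fit across all genes 1.11% of the 16153 genes were called lower in this comparison and 0.39% higher. Of 15 tested two-cell-like genes 6 were called lower, the 3 chosen genes included, 0 were called higher and 9 did not pass. Since this comparison picked those 3, their calls are no test. The count of 6 therefore cannot be judged against the share over all genes. Among those not chosen, Pramel6 lay just inside the threshold (limma adjusted p = 0.0472), and Tcstv3 (0.0569) and Pramel7 (0.0751) lay just outside it. Pramel6 and Pramel7 were above background on the mES arrays alone.

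The treated arrays were not part of that comparison, and on them the 3 genes were again lower in EpiSC cultures than in mES cells. Zscan4c was 19.8-fold lower in EpiSC + SB431542 than in mES + SB431542, with mean log2 levels of -4.36 ± 0.25 (SD, n = 2) and -0.05 (n = 1). Usp17la was 15.7-fold lower, with levels of -4.15 ± 0.23 in EpiSC + SB431542 and -0.18 in mES + SB431542. Tcstv1 was 5.89-fold lower, with levels of -3.56 ± 0.04 in EpiSC + SB431542 and -0.999 in mES + SB431542. These folds are from the brightest probes, on which the 2 treated EpiSC arrays lay within 0.5 log2 units of each other and apart from the treated mES array. On the other probes Zscan4c was 12.2-fold lower, and Tcstv1 9.48-fold (A_51_P481777) and 16.7-fold lower (A_51_P481768). The last of these probes was not well above background on either treated EpiSC array.

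In limma's fit with Benjamini-Hochberg adjustment over all genes, the log2 difference was -4.31 ± 0.46 for Zscan4c (SE, adjusted p = 0.0125), -3.97 ± 0.37 for Usp17la (adjusted p = 0.0109) and -2.56 ± 0.33 for Tcstv1 (adjusted p = 0.019). All 3 fell, where 5.32% of the 16153 genes fell and 5.35% rose, and the median over all genes was -0.34 (-0.19 after quantile normalization). The treated cultures came from the same lines as the untreated ones on which the genes were chosen. These 3 are therefore no fair draw from all genes. The spread in this fit also came in part from the untreated EpiSC arrays used in the choice. Each of the 6 probes also passed by itself in a limma fit of every probe, with adjusted p from 0.0122 to 0.0386. Probes read on the same arrays are no repeats of each other. Tcstv1 probe A_51_P481768 was not well above background on either treated EpiSC array, so the size of its difference is not well measured. It also enters the probe average for Tcstv1. Fitting the treated arrays alone, which takes the spread from no untreated array, gave limma adjusted p of 0.00462 for Zscan4c, 0.00619 for Usp17la and 0.0276 for Tcstv1. After normexp background correction the differences were smaller, at -3.32 for Zscan4c, -3.02 for Usp17la and -2.06 for Tcstv1, and all 3 still passed, and with probes averaged Tcstv1 was -3.29.

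With either treated EpiSC array left out, the fit took its spread from the untreated EpiSC pair alone. The adjusted calls depended on the array of 1 treated EpiSC line, although the differences did not shrink without it. With that from E3.5 EpiSC + SB431542 left out the differences were -4.49 for Zscan4c, -4.13 for Usp17la and -2.58 for Tcstv1, but limma's adjusted p was 0.0648, 0.0529 and 0.0667, and 0 genes of the whole table were called (4282 at an unadjusted p under 0.05). Those 3 differences are also the values within slide 1, which carried the mES pair and the E5.5 EpiSC pair, while each E3.5 EpiSC array lay on a slide of its own. The fit gave the lone mES + SB431542 array the same spread as the EpiSC lines. The labels do not state whether cultures were independent, so the p-values reflect only how far these samples differ, in part perhaps for technical reasons.

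In the mES pair of arrays all 3 genes had a lower signal with SB431542, and few other genes differed by as much. Zscan4c was 4.75-fold lower on the mES + SB431542 array than on the mES array (log2 ratio -2.25), Tcstv1 5.0-fold lower (-2.32) and Usp17la 3.16-fold lower (-1.66). Over the 6 probes the signal was 3.16-fold to 6.64-fold lower on the mES + SB431542 array. All 3 genes passed a 2-fold rule, where 1.16% of the 15736 genes above background on the brighter mES array were at least 2-fold lower and 1.44% at least 2-fold higher. Counted from the lowest ratio, Tcstv1 ranked 26, Zscan4c 29 and Usp17la 60 of 15736. This is 1 array against 1 array, with no replicate check, and the untreated mES array had also taken part in choosing the genes. Even so, the mES + SB431542 array stood above every EpiSC array for all 3 genes. No share over all genes is given for this order, so it is a description.

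**Figure D2:**
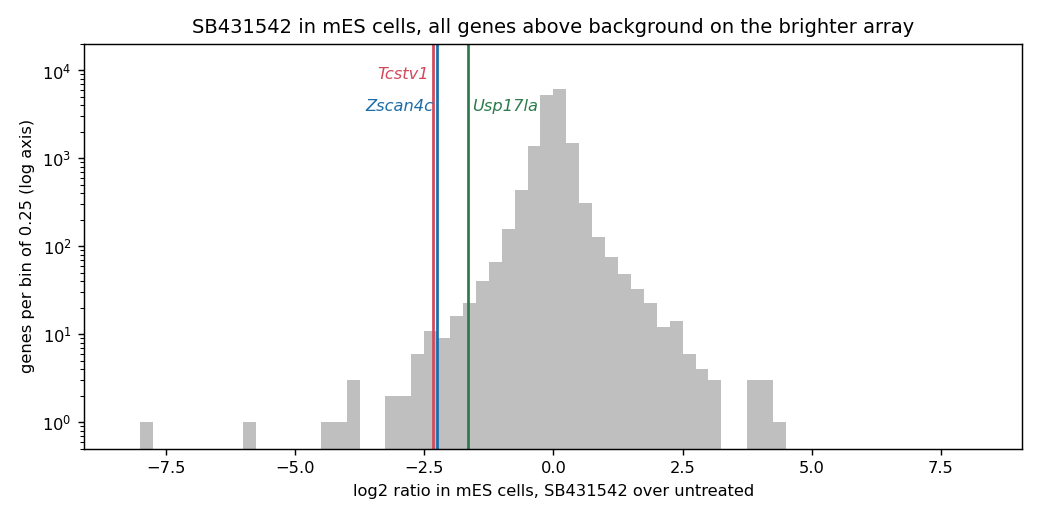
Number of genes (log axis) by log2 ratio of the mES + SB431542 array over the mES array, for genes above background on the brighter array, with the 3 genes as vertical lines. Tcstv1 (-2.32), Zscan4c (-2.25) and Usp17la (-1.66) lie in the lower tail, where 1.16% of 15736 genes are at least 2-fold lower.

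Known targets of the blocked pathway give a scale for these ratios. All 7 measured Nodal and Activin targets were at least 2-fold lower in the mES pair, among them Lefty1, a secreted Nodal antagonist (-7.79), and Smad7, an inhibitory Smad (-3.83). Of the primed epiblast markers 3 of 6 were at least 2-fold lower on the mES + SB431542 array, with a list median of -1.12, namely Fgf5 (-2.86), the mesoderm factor T (-1.67) and the growth factor Fgf8 (-1.31). Of the naive and core pluripotency markers 0 of 10 and 0 of 6 differed by 2-fold, where 1.16% of all genes were lower and 1.44% higher. Of the marker lists for other cells, 2 of 12 fibroblast, 2 of 7 trophectoderm and 1 of 9 blood cell markers were at least 2-fold higher on the mES + SB431542 array and 0 lower, and 0 of 8 oocyte markers changed by 2-fold. The part of such cells, and of primed cells, in the ratios of the 3 genes was not tested.

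In the EpiSC lines the 3 genes started from far lower levels. On their brightest probes the log2 ratios with SB431542 were nearer to 0 than in the mES pair, a difference that was not tested. In the E3.5 EpiSC pair the log2 ratios were -1.08 for Zscan4c, -0.94 for Tcstv1 and -1.39 for Usp17la, so 2 of the 3 were at least 2-fold lower where 20.2% of 15698 genes were. In the E5.5 EpiSC pair they were -0.67, -0.69 and -1.34 in the same gene order, so 1 of the 3 was at least 2-fold lower where 9.04% of 15627 genes were. In the E3.5 EpiSC pair Zscan4c fell short of 2-fold after normexp, after quantile normalization and with probes averaged. Tcstv1 reached 2-fold in that pair with probes averaged. The brightest probes were lower with SB431542 in all 3 pairs of arrays, but the second Zscan4c probe and Tcstv1 probe A_51_P481777 were each 0.25 higher in the E5.5 EpiSC pair. Tcstv1 probe A_51_P481768 had ratios of -2.79 in the E3.5 EpiSC pair, -0.69 in the E5.5 EpiSC pair and -2.52 in the mES pair. On both treated EpiSC arrays that probe was not well above background.

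Tested over both EpiSC lines, none of the 3 differences passed. The untreated EpiSC arrays in this test had also taken part in choosing the genes. The mean log2 levels were -4.36 in EpiSC + SB431542 and -3.48 in EpiSC for Zscan4c, -3.56 and -2.74 for Tcstv1, and -4.15 and -2.79 for Usp17la, in the same order of groups. The limma difference was -0.87 ± 0.37 for Zscan4c (SE, adjusted p = 0.283), -0.81 ± 0.27 for Tcstv1 (adjusted p = 0.212) and -1.37 ± 0.30 for Usp17la (adjusted p = 0.109), where 1.2% of all genes fell and 0.891% rose. With the line as a block the limma adjusted p was 0.177, 0.187 and 0.0726 in the same gene order, while the count of genes called in the whole table was 856 with the block and 338 without it.

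Across all 3 lines, in a fit of line plus treatment, the limma difference was -1.33 ± 0.37 for Zscan4c, -1.32 ± 0.39 for Tcstv1 and -1.46 ± 0.20 for Usp17la, each with an adjusted p of 0.503. Usp17la had the most even shift over the lines and the lowest unadjusted limma p of the 3 (0.00127). The untreated mES and EpiSC arrays in this fit had also taken part in choosing the genes. The p-values of the 3 are therefore not independent of that choice. This fit called 0.0% of genes at the adjusted threshold and 1398 (8.65%) at an unadjusted p under 0.05. Without either mES array it called 856 genes, and none of the 3 was among them, with limma adjusted p as given above for the block. These comparisons share arrays with each other, so their values are given side by side and not as repeats.

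Of 38 two-cell-like genes on a list drawn up for this report, 16 had a probe named here and 15 were above background on at least 1 array, while Obox5 was above background on none. Between treated EpiSC and treated mES arrays 7 of the 15 fell, 0 rose and 8 did not pass, with a median difference of -2.74, where 5.32% of all genes fell and 5.35% rose. The 3 genes described above are among the 7. Pramel6 and Pramel7 passed the filter on low values through the mES arrays alone, and of the 7 list genes above background on all 6 arrays 3 fell, which are the 3 chosen genes. The other 4 were Usp26, a deubiquitinase of the testis (-6.46 ± 0.42, limma adjusted p = 0.0076), Pramel7 and Pramel6, leucine-rich repeat proteins of the PRAME family, and Zfp750, a zinc finger factor. Pramel7 (at least 19.6-fold lower in EpiSC + SB431542, limma adjusted p = 0.0079), Zfp750 (at least 21.2-fold, 0.0076) and Pramel6 (at least 4.95-fold, 0.0076) were below background on both treated EpiSC arrays, so their differences are bounds. Usp26 was above background on 1 of the 2 by the probe that gave the difference of -6.46. Its other probe, A_52_P419603, was brighter on the mES arrays, at 2872 with SB431542 and 3645 without, and was above background on no EpiSC array. The 8 that did not pass had differences between -3.45 (Sp110, SE 1.95, limma adjusted p = 0.315) and -0.16 (Tdpoz1), among them the relatives Tcstv3 at -1.56 and Usp17lc at -1.22, and Zfp352, which was below background on both treated EpiSC arrays and so is given as at least 4.76-fold lower (limma adjusted p = 0.0926). None of the 7 calls was made when the E3.5 EpiSC + SB431542 array was left out, and Pramel6 was not called after normexp background correction.

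**Figure D3:**
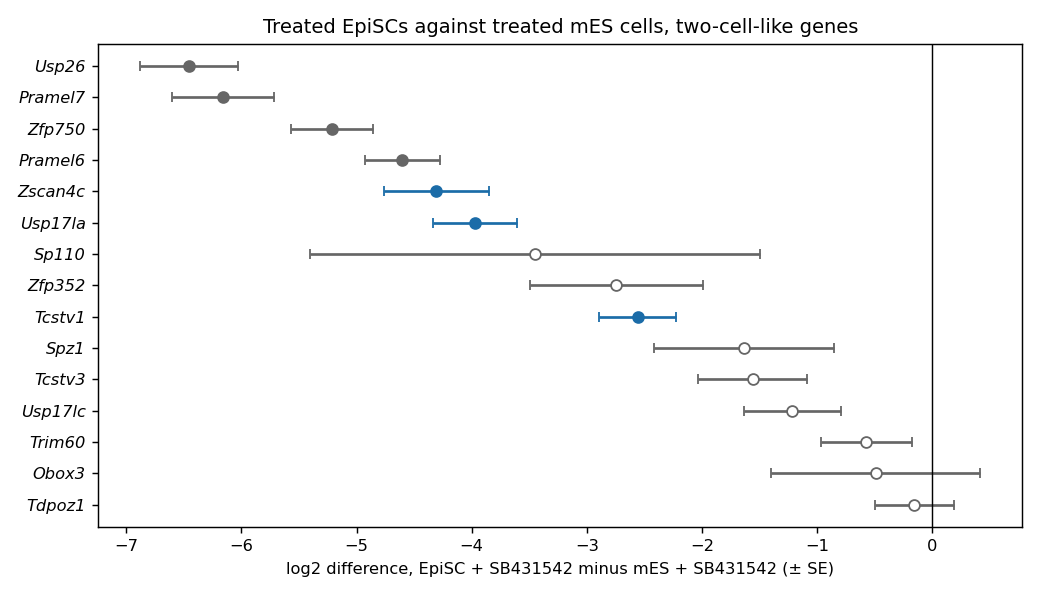
Log2 difference of EpiSC + SB431542 minus mES + SB431542 for 15 two-cell-like genes, with the standard error of the limma fit. Filled points passed at an adjusted p under 0.05, and Zscan4c, Tcstv1 and Usp17la are blue. The 7 filled points lie between -6.46 and -2.56, and all 15 are below 0.

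The list did not move as one in the mES pair. Of the 15 genes, 6 were at least 2-fold lower on the mES + SB431542 array and 2 at least 2-fold higher, where 1.16% of all genes were lower and 1.44% higher, with a median log2 ratio of -0.57 against 0.02 over all genes. The 6 were the 3 genes above and their relatives Tcstv3 (-1.87) and Usp17lc (-1.40), with Zfp352, a zinc finger gene of the cleavage embryo (-1.18). The 2 that were higher were Pramel7, at log2 levels of -2.36 on the mES + SB431542 array and -5.02 on the mES array (ratio 2.66), and Pramel6 (ratio 1.72). After normexp background correction Usp17lc and Zfp352 no longer reached 2-fold, which left 4 lower and 1 higher. Usp26, among the genes furthest below mES in treated EpiSCs, had a ratio of 0.07, and Zfp750 one of -0.57.

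In the EpiSC pairs 5 of 13 list genes above background were at least 2-fold lower with SB431542 in the E3.5 line and 3 of 12 in the E5.5 line, where 20.2% and 9.04% of all genes were, and 2 and 0 were at least 2-fold higher, where 11.7% and 6.69% of all genes were. Usp17la and Zfp750 were the genes lower in both lines. These counts depended on the processing. After normexp background correction 2 of 13 were at least 2-fold lower and 0 higher in the E3.5 line, and 5 of 12 were lower in the E5.5 line. Usp17la and Zfp352 were then the genes lower in both. The shares over all genes belong to the main setting. Zfp750 was below background on both treated EpiSC arrays, so over both lines it is given as at least 2.13-fold lower. Tcstv3 and Usp17lc, which were lower with their relatives in the mES pair, had ratios of 0.00 and -0.66 in the E3.5 line and of -0.10 and -0.39 in the E5.5 line. Sp110, a nuclear body protein, had a ratio of -2.28 in the E5.5 line, and in the E3.5 line it was higher with SB431542 against an untreated array on which it was not above background. Over both lines 0 of the 15 passed in limma's test (4 at an unadjusted p under 0.05, as were 19.8% of all genes), and with the line as a block Zfp750 alone passed (limma adjusted p = 0.0456), with the same bound on its size.

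**Figure D4:**
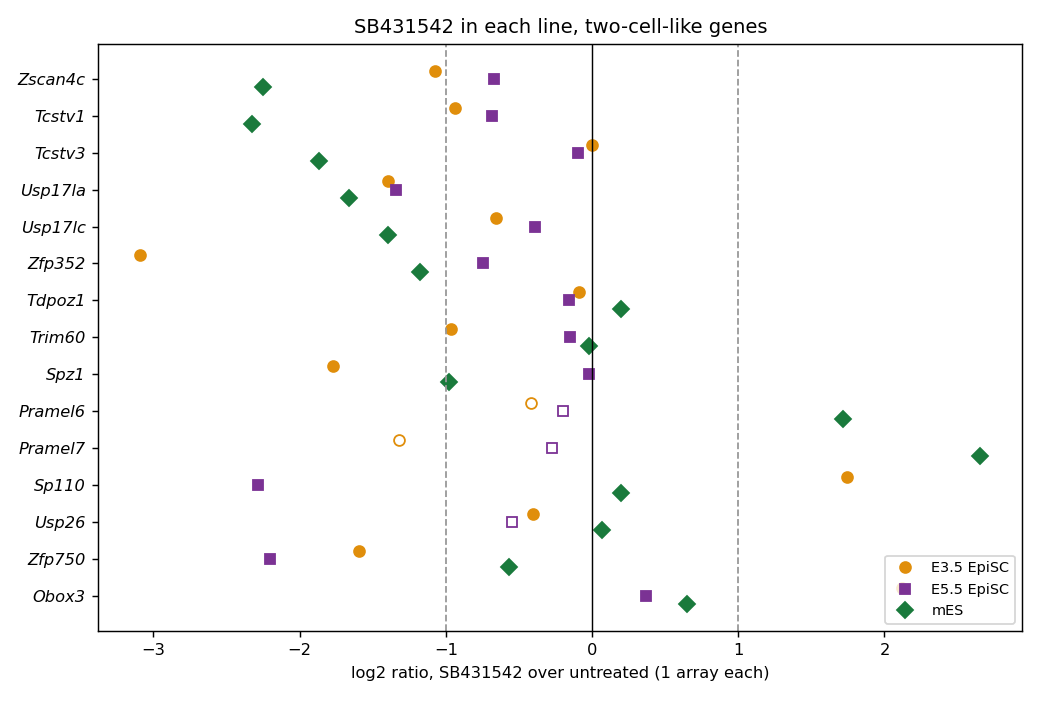
Log2 ratio of SB431542 over untreated in each line for 15 two-cell-like genes, 1 array against 1 array, with dashed lines at a 2-fold change. Open symbols mark pairs whose brighter array was not above background. The mES points of Zscan4c, Tcstv1, Tcstv3, Usp17la, Usp17lc and Zfp352 lie left of the dashed line, and those of Pramel6 and Pramel7 lie right of it.

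Genes that switch on this group were measured beside it. Of 8 known activators 7 were tested, and Duxf3, the Dux gene, had no probe named here. Between treated EpiSC and treated mES arrays 4 fell and 3 did not pass, where 5.32% of all genes fell, and of the 5 activators above background on all 6 arrays 2 fell. Dppa2, which opens chromatin at these genes with Dppa4, fell by 3.03 on the log2 scale (limma adjusted p = 0.0147), with levels of -1.51 and -1.44 in E3.5 and E5.5 EpiSC + SB431542 and 1.55 in mES + SB431542. Dppa4 was at least 1235-fold lower and Dppa3, a maternal factor, at least 1394-fold lower in EpiSC + SB431542 (limma adjusted p = 0.00529 and 0.0108). Nr5a2, a nuclear receptor of the early embryo, fell by 7.67 (limma adjusted p = 0.00498). Without the E3.5 EpiSC + SB431542 array 0 of the 7 were called.

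In the mES pair 0 of the 7 activators differed by 2-fold, which is near the share over all genes (1.16% lower and 1.44% higher) and so is no result about activators. Dppa2 stood at 1.55 on the mES + SB431542 array and 1.69 on the mES array (log2 ratio -0.14), and Dppa4 at 3.61 and 3.43 (0.18). Nr5a2 had a ratio of -0.06 and Dppa3 one of 0.72. In EpiSCs Dppa4 (-3.81, limma adjusted p = 0.0433) and Nr5a2 (-2.05, limma adjusted p = 0.0433) fell with SB431542, and Dppa4 was below background on both treated EpiSC arrays, so that its fall is at least 2.99-fold. Neither of these 2 was called without either treated EpiSC array, Nr5a2 also not without either untreated one, and Dppa4 not after normexp (limma adjusted p = 0.0755).

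Chromatin and RNA regulators known to restrain the group were measured likewise. Of 30 listed repressors 28 were tested, and between treated EpiSC and treated mES arrays 1 fell and 0 rose, which is near the share over all genes (5.32% fell and 5.35% rose). The 1 that fell was Dppa5a (-9.85, limma adjusted p = 0.00498), an RNA-binding protein of naive cells. Trim28, the co-repressor of transposable elements, had a difference of -1.40 (limma adjusted p = 0.0665), Kdm1a, a histone demethylase, -0.47, and Chaf1a and Chaf1b, subunits of chromatin assembly factor 1, -0.08 and -0.93. With genes restricted to those above background on all 6 arrays 4 fell and 1 rose, with an intensity trend in the variance 7 fell and 1 rose, and 1 also rose after normexp, after quantile normalization and with probes averaged. The shares over all genes given above belong to the main setting, so these counts cannot be judged against them. With the trend 2923 of 16153 genes were called in all, 54.3% of them lower. In the mES pair 0 of 28 differed by 2-fold, where 1.16% of all genes were lower and 1.44% higher, with Trim28 at 0.16 and Kdm1a at -0.09.

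Telomere and recombination genes were listed because Zscan4 acts on telomeres. Of 19, 18 were tested and 4 fell between treated EpiSC and treated mES arrays, where 5.32% of all genes fell. Terf1, the telomere-binding subunit of shelterin, fell by 2.23 (limma adjusted p = 0.0342), with levels of 0.48 and 1.02 in E3.5 and E5.5 EpiSC + SB431542 and 2.98 in mES + SB431542. The other 3 are meiotic: Smc1b, a cohesin subunit (-5.99, limma adjusted p = 0.0112), and Sycp1 (at least 134-fold lower, 0.0076) and Sycp3 (at least 118-fold lower, 0.00729), of the synaptonemal complex. Sycp1 and Sycp3 passed the filter on low values through the mES arrays alone. In a separate fit restricted to genes above background on all 6 arrays, which holds 16 of the list and neither of these, 3 fell. Tert, the catalytic subunit of telomerase, had a difference of -0.63 (limma adjusted p = 0.385). In the mES pair 0 of 18 differed by 2-fold, where 1.16% of all genes were lower and 1.44% higher, Terf1 having a ratio of -0.06 and Tert one of -0.19. With the treated arrays alone, or without either untreated EpiSC array, Terf1 was not called, and without the E3.5 EpiSC + SB431542 array none of the 4 was.

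Among 12 tested ubiquitin-specific proteases, the wider family of Usp17la, Usp17la and Usp26 fell between treated EpiSC and treated mES arrays and 10 did not pass, where 5.32% of all genes fell. In the mES pair Usp17la and Usp17lc were at least 2-fold lower and the other 10 were not, where 1.16% of all genes were lower. In the comparison of treated arrays 9 of 10 naive, 4 of 6 core pluripotency and 1 of 6 primed epiblast markers also fell. Their median differences were -8.38, -4.62 and -0.61, and Dppa3 and Tbx3 are on both the naive and the activator lists. Among markers of other cells 0 of 12 fibroblast, 0 of 9 blood cell, 1 of 7 trophectoderm and 1 of 8 oocyte markers were called there. Over all genes 5.32% fell and 5.35% rose. The oocyte marker was Zp3, a coat protein of the egg, which stood at -2.97 and -2.75 in E3.5 and E5.5 EpiSC + SB431542 and at 1.09 in mES + SB431542. Zp3 was 1.09 on the mES + SB431542 array, against 0.63 on the mES array, while the 3 genes were lower there. The summed oocyte markers were 2.71 times the 75th percentile on the mES + SB431542 array and 2.19 times on the mES array, and their part in the results was not tested.

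The profiles most like each gene over the 6 arrays were found by the root mean square difference between gene-centred log2 levels, among 16151 genes. The closest to Usp17la was Aire, a transcriptional regulator known from the thymus, at 0.20, followed by Slc25a31 (0.38), Zfp459 (0.40), Zfp750 (0.47) and Tcstv1 (0.49). Aire stood at -3.66, -3.45 and 0.64 on the treated E3.5 EpiSC, E5.5 EpiSC and mES arrays, against -1.99, -2.09 and 2.05 on the untreated ones, and its ratio with SB431542 was -1.67 in the E3.5 line, -1.36 in the E5.5 line and -1.41 in mES cells. It thus differed from Zscan4c and Tcstv1 in having similar ratios in all 3 lines. Those closest to Zscan4c were Mep1b (0.46), Usp17la (0.50), Aire (0.59), Myo1g (0.61) and Nlrc4 (0.64), of which Mep1b and Nlrc4 were above background on the mES arrays alone.

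Those closest to Tcstv1 were Gm5662 (0.39), Pramel37 (0.47), Ngp (0.48), Usp17la (0.49) and Myo1f (0.51). Gm5662 was bright throughout, at -1.61, -0.62 and 1.81 on the treated E3.5 EpiSC, E5.5 EpiSC and mES arrays, against -0.36, -0.08 and 3.49 on the untreated ones. Ngp was above background on the untreated mES array alone. Pramel37 had ratios with SB431542 of -0.87 in the E3.5 line, 0.09 in the E5.5 line and -2.26 in mES cells, opposite in mES to Pramel6 and Pramel7. Zscan4c and Tcstv1, at 0.81 from each other, were further apart than either was from Usp17la. The widest gap in all these profiles lies between mES and EpiSC arrays, on which the 3 genes were chosen, so likeness to them is a description.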

How the data were processed

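Total RNA from 6 mouse cell cultures was measured with one-colour (Cy3) Agilent arrays, as the labels state. The deposited scanner files hold each spot's intensity, which Agilent's Feature Extraction program (10.7.1.1) had background-subtracted, per the file headers, while the submitters' processing notes name version 9.1. The deposited value table held the same intensity at 45018 of 45018 spots on each array. The same program set the marks for detection, saturation and outliers.

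Outlier spots were left out, repeat spots averaged, and log2 of the deposited intensity taken relative to the 75th percentile of each array's 43379 gene spots (1190 to 1801). Of 41174 probes 24375 were named through RefSeq accessions (GRCm38.p6). The file headers name another assembly, so coordinates are those of the RefSeq promoter table. A gene is its probe with the highest mean. limma 3.58.1 in R 4.3.3 (lmFit, eBayes) was used with Benjamini-Hochberg adjustment at 0.05. EpiSCs against mES cells and SB431542 in EpiSCs came from 1 fit of 4 arms (2 residual degrees of freedom) with the 2 EpiSC lines as replicates. The effect across 3 lines came from line plus treatment. The number of arrays limits the precision. Line pairs the treated with the untreated arrays of the same cells, and the EpiSC arrays' deviations correlated at 0.27 over genes within a line. Single pairs had no test and a 2-fold rule. "At least N-fold" compares the bright group's mean with a bound on each dim array, which is its lowest detected signal or the gene's signal, whichever is higher. The fit was tested on simulated data.

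The genes, the 14 gene lists and the tests were chosen with earlier results of these data known. Named are all tested two-cell-like genes, the members of other lists that passed or up to 4 leading ones, and the 5 closest profiles per gene. Alternatives were normexp, quantile normalization, filters, probe choice, an intensity trend, blocks, slide and each array left out.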

Additional observations from a re-analysis of the deposited data

Results flagged for a closer look

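Tdpoz1, a BTB domain gene of the two-cell-like list, had log2 ratios with SB431542 of opposite sign in EpiSC and mES pairs on its brightest probe. The ratio was -0.087 in the E3.5 EpiSC pair and -0.1588 in the E5.5 EpiSC pair, against 0.1968 in the mES pair. Each signal of this probe carries a scanner error of 10.5% to 10.8%, and it did not pass over both EpiSC lines (limma adjusted p = 0.819). All its ratios are below a 2-fold change, each rests on 1 array against 1 array, and the difference between the classes was not tested. A dimmer probe, A_52_P332044, had ratios of -0.42, -0.21 and -2.07 in the same order, and so the same sign in all pairs. That probe was above background on the untreated mES array alone.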

How the results depend on the processing

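Zscan4c, Tcstv1 and Usp17la kept their direction in every comparison under every alternative run, with the exception of single probes in the E5.5 EpiSC pair. In treated EpiSCs against treated mES cells their difference ran from -4.49 to -4.13, -2.58 to -2.53 and -4.13 to -3.81 with 1 array left out, and only the loss of the E3.5 EpiSC + SB431542 array (-4.49, -2.58 and -4.13) ended the calls (limma adjusted p = 0.0648, 0.0667 and 0.0529). The count of genes called there was 1724, 2923 with an intensity trend, and 0 to 1546 with 1 array left out. For SB431542 in EpiSCs it was 338, 540 with genes above background on all 6 arrays, 966 with the trend, 856 with the line as a replicate block, and 0 to 259 with 1 array left out (0 without either treated EpiSC array, 206 without E3.5 EpiSC). The block changed the call of no member. Across 3 lines it was 0, and 0 to 856 with 1 array left out (856 without either mES array, 3 without either E5.5 array), and 0 with no replicate block or with the slide as a block. Between untreated EpiSC and mES arrays it was 242 (74.0% lower; 60.3% lower after normexp, 54.7% with genes above background on all 6 arrays), 675 with the trend (49.2% lower), and 0 to 226 with 1 array left out (0 without either treated EpiSC array). Ratios in single lines that moved beyond the scanner error were, averaged over probes, -1.48 for Tcstv1 in E3.5 EpiSC, -0.21 for Zscan4c and -0.38 for Tcstv1 in E5.5 EpiSC and -2.49 for Zscan4c in mES, and, after normexp, -1.13 for Usp17la in E3.5 EpiSC and -0.99 for Zscan4c and -0.93 for Tcstv1 in E5.5 EpiSC. For SB431542 in EpiSCs the sign of genes that did not pass turned for Obox3 (-0.49) and Sycp1 (-0.67) after normexp, and Pramel6 (0.0037) after quantile normalization. With 1 array left out Tcstv3 ran from -0.3891 to 0.2935, Tdpoz1 from -0.2695 to 0.0237 and Sp110 from -2.6517 to 2.1114, above 0 without E5.5 EpiSC for all 3 and without E3.5 EpiSC + SB431542 for Tcstv3 and Sp110. The causes were not tested. Normexp used the median signal and was chosen after seeing the data, since the planned mean signal column was not used here.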
